A study of Mus musculus with 27 samples.

Results

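The genes described here are 10 that mark mouse pluripotent cells, Pou5f1, Nanog, Sox2, Zfp42, Esrrb, Klf4, Dppa4, Dppa5a, Tdgf1 and Utf1, which were taken as a named list out of the 23279 genes of the table. Their RNA was followed in 26 libraries of 9 groups, with the comparison of ES–HLB against ES–FLB at the centre. ES–FLB and ES–HLB are forelimb bud- and hindlimb bud-like tissues grown from mouse embryonic stem (ES) cells of the line EB5 Hand2::GFP +/-, and both came from aggregates that had received BMP4 and Matrigel, then the BMP inhibitor LDN193189 and Wnt3. Only the retinoic acid step set the 2 apart by protocol, with retinoic acid given for ES–FLB and a retinoic acid antagonist for ES–HLB. Cells positive for the Hand2 reporter were sorted by FACS on day 9 (3 libraries per group).

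The embryonic groups came from Slc:ICR mice. They were the forelimb bud (FLB) and hindlimb bud (HLB) at E10.0, as the labels give the stage of the early buds, and FLB, HLB, branchial arch (BA), cardiac tissue (Ca) and tail bud (TB) at E10.5. A figure legend of the study puts the early forelimb buds at a somewhat earlier stage than the early hindlimb buds, so limb type and stage may not be separable between these 2 groups. Each had 3 libraries except HLB at E10.5, which had 2 here because its replicate 2 has no values on several chromosomes and was left out. Embryonic tissues were not sorted and are of another strain than the ES line, so sorting, strain and culture cannot be told apart in any comparison of ES-derived with embryonic groups. All ES-derived cells came from 1 reporter line. The labels do not say whether replicates are separate cultures or litters, so p-values measure the spread between these libraries, which may be technical.

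Mouse ES cells keep their pluripotent state through a network of transcription factors in which the products of Pou5f1, Sox2 and Nanog bind many of the same regulatory sites, their own genes included. Esrrb, Klf4 and Zfp42 belong to the naive layer of this network, which is normally shut down as cells leave the state for a germ layer. Several of these factors return later in other roles, such as Sox2 in neural progenitors and pharyngeal epithelium and Klf4 in many epithelial and connective tissue cells.

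The values are reads per 1000000 (CPM) as deposited, rescaled between libraries. The lowest values were spaced by the worth of 1 read, from which the depth was read. It lay between 5543750 and 22142351 reads, and 3 reads, taken as the floor, were worth 0.381 to 0.457 CPM in the ES-derived libraries. In the limb buds at E10.0 the depth was at least 19642188 reads, and in no other library was it above 8541937. Floors cover counting error only. The reporter gene Hand2 averaged 156 ± 13.2 CPM over the ES–FLB libraries and 235 ± 13.1 CPM over those of ES–HLB (SD, n = 3). The forelimb gene Tbx5 (70.6 ± 3.03 against 3.14 ± 0.910 CPM) and the hindlimb gene Pitx1 (7.38 ± 1.47 against 69.7 ± 4.56 CPM) matched the labels of both groups.

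Promoter windows are shown for Pou5f1 and Nanog, which were higher in ES–HLB, and for Klf4, which was lower there. Each holds the 250 bases before the RefSeq start (GRCm38.p6), written along the gene's strand. Capitals mark any of 4 short motifs on either strand: ATGCAAA (core of the octamer bound by POU factors), CATTGT (SOX), GGGCGG (GC box) and AGGTCA (half-site of nuclear receptors).
Pou5f1, chr17:35505782-35506031, plus strand: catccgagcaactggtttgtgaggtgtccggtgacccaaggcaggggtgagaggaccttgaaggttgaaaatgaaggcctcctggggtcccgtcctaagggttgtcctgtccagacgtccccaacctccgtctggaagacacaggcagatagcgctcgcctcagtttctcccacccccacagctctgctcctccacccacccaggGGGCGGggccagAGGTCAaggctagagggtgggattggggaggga
Nanog, chr6:122707239-122707488, plus strand: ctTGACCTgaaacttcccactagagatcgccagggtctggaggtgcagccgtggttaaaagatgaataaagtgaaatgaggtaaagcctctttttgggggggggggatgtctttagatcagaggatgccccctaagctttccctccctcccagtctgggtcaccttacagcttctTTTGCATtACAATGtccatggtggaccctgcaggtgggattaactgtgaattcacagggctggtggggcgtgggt
Klf4, chr4:55532476-55532725, minus strand: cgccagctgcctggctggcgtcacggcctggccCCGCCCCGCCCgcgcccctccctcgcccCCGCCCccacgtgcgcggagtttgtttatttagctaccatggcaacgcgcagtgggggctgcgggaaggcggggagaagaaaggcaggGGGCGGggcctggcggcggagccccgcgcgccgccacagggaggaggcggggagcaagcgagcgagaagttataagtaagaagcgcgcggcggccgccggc

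The window of Nanog held ATGCAAA on the minus strand 75 to 69 bases before the start and CATTGT on the same strand 67 to 62 bases before it, with 1 base between them. Neither motif was found in the window of Pou5f1 or of Klf4, and Klf4 held 4 GC boxes, 2 of them overlapping by 1 base. Among the 8 genes with an entry, ATGCAAA was also in the windows of Sox2 and Zfp42 and CATTGT in none other. Of 32817 windows of the same length, 4.13% held ATGCAAA, 10.7% CATTGT, 32.7% GGGCGG and 14.0% AGGTCA. These matches are a description of the letters and not sites of binding. The GC content was 62% for Pou5f1, 52% for Nanog and 74% for Klf4, against a median of 52.4% over all windows.

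To ask how much pluripotency transcript the sorted cells carried, and whether it differed between the protocols, ES–HLB was set against ES–FLB. All 10 genes differed, 9 being higher in ES–HLB and Klf4 lower (adjusted p under 0.05, limma on 6 libraries). In the same test 12.3% of the 13132 genes were higher and 12.4% were lower. Dppa4, Tdgf1 and Utf1 were not at 1 CPM in every ES–FLB library and passed the filter only with the ES–HLB libraries. For these genes the direction was largely set by the filter. For each of the 10 the libraries of both groups did not overlap, which held for 18.2% of all genes in the higher direction and for 18.9% in the lower. The median log2 fold change was 1.83 over the 10 genes and -0.0029 over all genes tested. In bulk RNA, more cells of a type and more RNA per cell cannot be told apart.

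**Figure D1:**
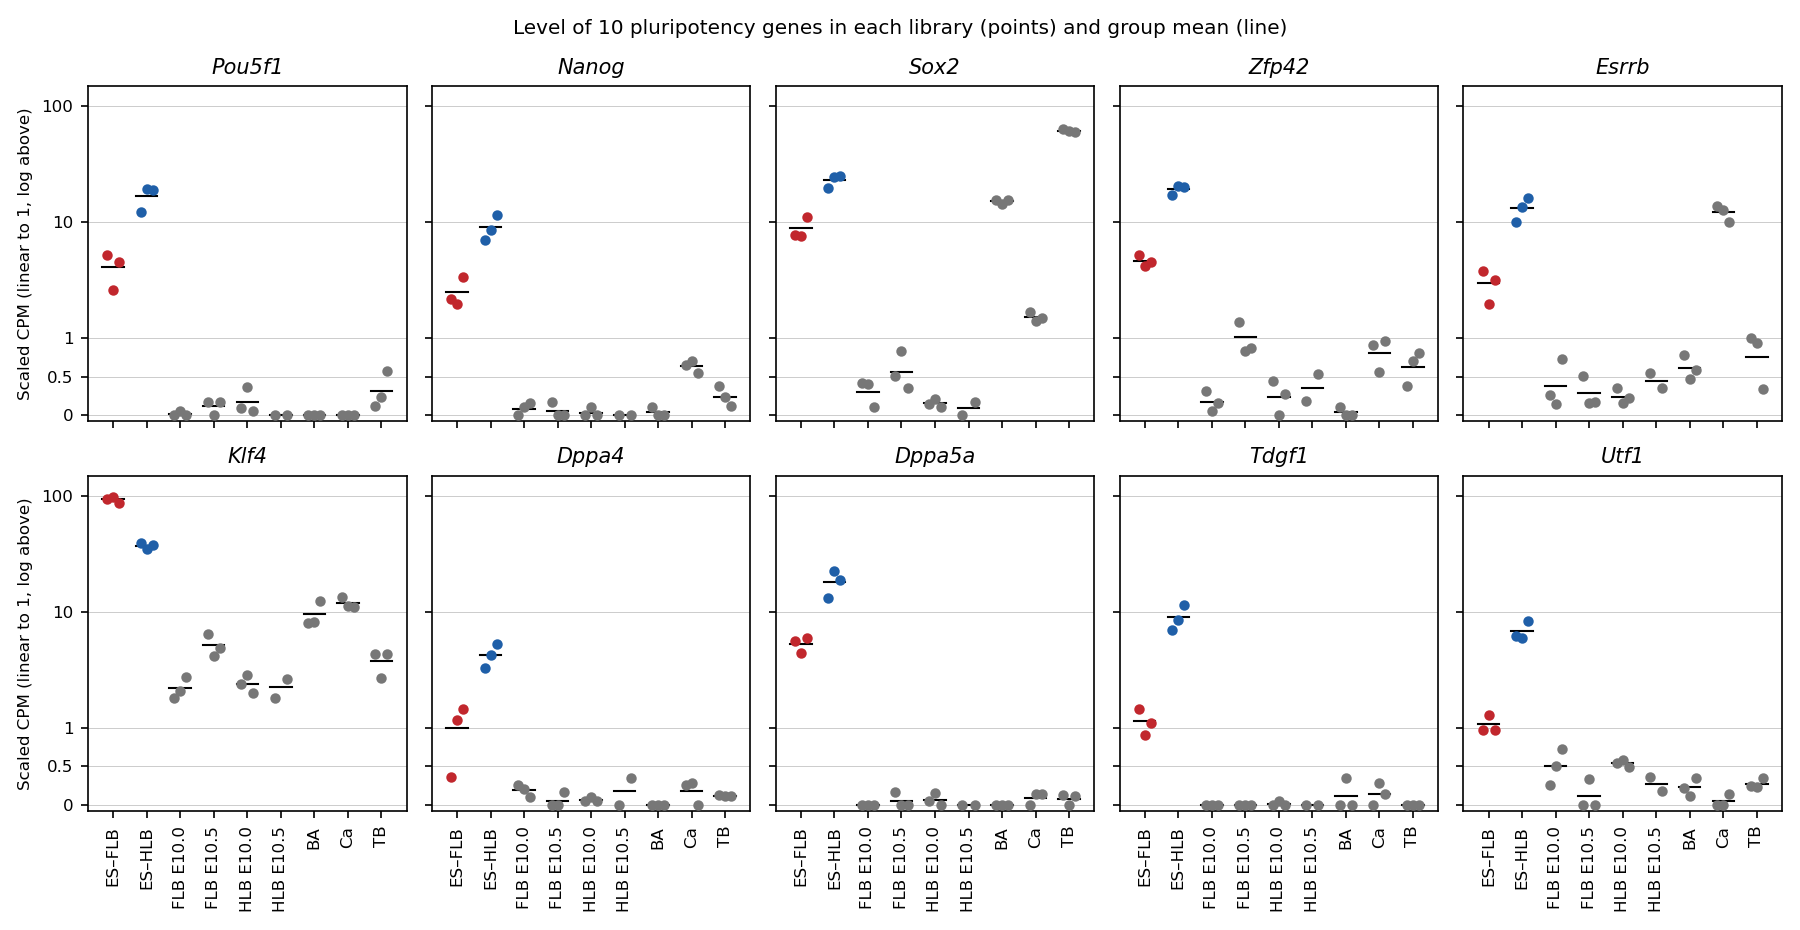
Level of each gene in scaled CPM (y axis, linear up to 1 CPM and logarithmic above) in the 9 groups (x axis), with a point per library and a line at the group mean. ES–HLB stands above ES–FLB in every panel but that of Klf4, and embryonic points reach into or above the range of the ES-derived ones for Sox2 (BA and TB) and Esrrb (Ca) and come close to the lowest ES–FLB point for Dppa4 and Utf1.

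Pou5f1, the POU factor without which no pluripotent cells form, was at 5.23, 2.60 and 4.49 CPM in the ES–FLB libraries, from 20 to 43 reads. The ES–HLB libraries had 12.2, 19.4 and 19.1 CPM, from 96 to 160 reads. Every ES–HLB library was thus above every ES–FLB library, the lowest by 2.34-fold over the highest. The means were 4.11 ± 1.35 and 16.9 ± 4.07 CPM (SD, n = 3), a log2 fold change of 1.94 (SE 0.23, adjusted p = 1.28e-05, limma).

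Nanog, a homeobox factor that steadies the naive state, was read at 2.19, 1.95 and 3.40 CPM in ES–FLB. In ES–HLB it was at 7.00, 8.58 and 11.6 CPM. The 2 groups stood 3.60-fold apart in their means, 2.51 ± 0.776 against 9.05 ± 2.33 CPM (log2 fold change 1.67, SE 0.20, adjusted p = 5.41e-08).

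Sox2, the partner of Pou5f1 on DNA, had the smallest rise of the 9 genes. Its ES–FLB libraries held 7.78, 7.68 and 11.2 CPM and its ES–HLB libraries 19.8, 24.5 and 25.2 CPM. Means of 8.87 ± 1.98 and 23.2 ± 2.90 CPM gave a log2 fold change of 1.35 (SE 0.13, adjusted p = 1.01e-09). The whole of Sox2 lies within Sox2ot, a non-coding gene on the same strand, which was itself near 0 in the sorted cells (means of 0.457 CPM for ES–FLB and 0.0867 CPM for ES–HLB).

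Esrrb, an orphan nuclear receptor of the naive network, was at 3.77, 1.95 and 3.16 CPM in ES–FLB, while the ES–HLB libraries had 10.1, 13.5 and 16.1 CPM. Zfp42 (Rex1), a zinc-finger gene long used as a reporter of the naive state, was at 5.23, 4.16 and 4.49 CPM in ES–FLB, against 17.3, 20.7 and 20.3 CPM in ES–HLB. The rise was 2.00 on the log2 scale for Esrrb (SE 0.19, adjusted p = 2.33e-09) and 1.96 for Zfp42 (SE 0.14, adjusted p = 1.91e-13). Of the 9 genes higher in ES–HLB, Zfp42 had the smallest adjusted p, with an SD of 0.546 CPM for ES–FLB and 1.85 CPM for ES–HLB.

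Klf4, a Krüppel-like factor of the naive network that many differentiated cells also express, went the other way. Its ES–FLB libraries held 94.7, 99.1 and 87.9 CPM, from 724 to 779 reads, and its ES–HLB libraries 39.4, 35.0 and 37.6 CPM. No ES–HLB library came near an ES–FLB library. The mean was 93.9 ± 5.68 CPM for ES–FLB and 37.4 ± 2.21 CPM for ES–HLB, 2.51-fold higher in ES–FLB, and the log2 fold change was -1.32 (SE 0.07, adjusted p = 6.29e-17).

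Dppa4, which codes for a chromatin protein of pluripotent cells and the early germ line, was read 3, 9 and 12 times in ES–FLB, or 0.365, 1.17 and 1.46 CPM, so that replicate 1 was at the floor. In ES–HLB it was at 3.31, 4.22 and 5.25 CPM, and the log2 fold change was 1.73 (SE 0.27, adjusted p = 6.92e-06).

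Dppa5a, whose product is an RNA-binding protein with a KH domain, was at 5.59, 4.42 and 5.95 CPM in ES–FLB, against 13.2, 22.7 and 18.7 CPM in ES–HLB. The increase of 1.66 on the log2 scale (SE 0.16, adjusted p = 1.96e-09) was similar in size to that of Nanog. Utf1, a chromatin-associated factor found in undifferentiated cells, was near 1 CPM in ES–FLB, at 0.973, 1.30 and 0.971 CPM. The ES–HLB libraries held 6.23, 5.91 and 8.36 CPM, which gave a log2 fold change of 2.20 (SE 0.22, adjusted p = 4.64e-10).

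Tdgf1 (Cripto), the co-receptor through which Nodal signals, had the widest difference. It was at 1.46, 0.911 and 1.09 CPM in ES–FLB, from 7 to 12 reads. The ES–HLB libraries held 7.00, 8.58 and 11.6 CPM, and the mean of 9.05 ± 2.33 CPM was 7.84-fold that of ES–FLB (log2 fold change 2.52, SE 0.21, adjusted p = 1.52e-11). By log2 fold change Tdgf1 ranked 17 from the highest of the 13132 genes, the other 8 higher genes ranked between 40 (Utf1) and 190 (Sox2), and Klf4 ranked 148 from the lowest.

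**Figure D2:**
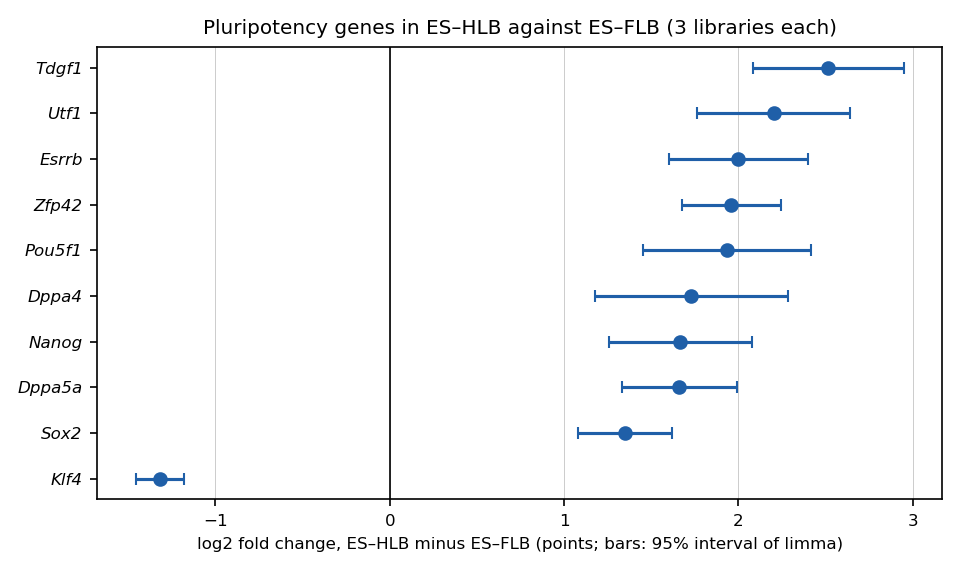
Log2 fold change of the 10 genes, ES–HLB minus ES–FLB (x axis), with points for limma's estimates over 3 libraries per group and bars for their 95% intervals. The estimates run from 1.35 (Sox2) to 2.52 (Tdgf1) for 9 genes and stand at -1.32 for Klf4, and no interval reaches 0.

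Within a group, many of the listed genes were lowest or highest in the same library. ES–HLB replicate 1 had the lowest value for 8 of the 9 genes other than Klf4, and replicate 3 the highest for 6. Among the ES–FLB libraries, replicate 2 was the lowest for 7 of the 9. The share of all genes with the same order of libraries was not counted, so the order is not shown to be particular to the list. Leaving out any 1 of the 6 libraries kept all 10 genes past the threshold in the same direction.

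Levels of different genes were compared per kilobase of exon, as the union of GENCODE exons. On that scale Dppa5a was the highest in ES–HLB (29.4 ± 7.65 CPM per kb), ahead of Klf4 (12.3 ± 0.725), Sox2 (11.3 ± 1.41) and Zfp42 (10.3 ± 0.984). Pou5f1 was at 7.52 ± 1.81, Utf1 at 5.57 ± 1.08, Nanog at 4.04 ± 1.04, Tdgf1 at 3.45 ± 0.888, Dppa4 at 2.56 ± 0.585 and Esrrb at 2.19 ± 0.503 CPM per kb. In ES–FLB the order was led instead by Klf4 (30.8 ± 1.86 CPM per kb), with Dppa5a next at 8.60 ± 1.29 and Tdgf1 last at 0.440 ± 0.107. The stated processing does not say how reads shared with near-identical copies were counted, and GENCODE lists pseudogenes of Nanog, Zfp42, Dppa5a and Tdgf1, none of them in the table, so the levels of these 4 genes are uncertain to that extent. Pou5f1 also shares 1475 bases with an antisense gene, and the strand setting of the counting is not given in the sources used here.

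The embryonic groups were the background against which these levels were read. Across the 20 embryonic libraries Pou5f1 reached at most 0.572 CPM, from 5 reads in a TB library, and was at 0 in 11 libraries. In BA, Ca and HLB at E10.5 it was at 0 in every library. Against a floor of 3 reads per library it was at least 48.8-fold higher in ES–HLB than in BA and at least 11.8-fold higher in ES–FLB than in BA. Nanog reached at most 0.702 CPM, in Ca, where it was read 4 or 5 times per library, and was at 0 in 9 libraries. Dppa5a was at 0 in 13 of the 20 and never above 3 reads, and Tdgf1 was at 0 in 16 of the 20 and likewise never above 3 reads.

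Dppa4 was at most 0.353 CPM in embryonic libraries, below ES–FLB replicate 1 at 0.365 CPM by less than what 1 read was worth in that library. Utf1 reached 0.731 CPM in FLB at E10.0, with group means of 0.499 ± 0.237 CPM there and 0.540 ± 0.0409 CPM in HLB at E10.0. Zfp42 was highest among embryonic groups in FLB at E10.5, at 1.36, 0.826 and 0.867 CPM. For 8 of the 10 genes all 6 ES-derived libraries were above all 20 embryonic libraries, a pattern shown by 11.8% of the 14432 genes tested. Pou5f1, Nanog, Dppa4, Dppa5a, Tdgf1 and Utf1 reached 1 CPM in no embryonic library, and Zfp42 in only 1. They passed the filter only with the ES-derived libraries, so their direction against embryonic groups was largely set by the filter.

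Sox2 and Esrrb were the exceptions, each through tissues that express the gene in the embryo. Sox2 was at 63.5, 60.9 and 60.7 CPM in TB and at 15.5, 14.3 and 15.6 CPM in BA. TB was above ES–HLB (log2 difference 1.40, adjusted p = 1.63e-07, limma over 26 libraries), ES–HLB above BA (0.59, adjusted p = 0.00932) and BA above ES–FLB (0.76, adjusted p = 0.00115). In the limb buds, Sox2 was at most 0.826 CPM. Esrrb was at 13.7, 12.6 and 10.1 CPM in Ca, within the range of ES–HLB (10.1 to 16.1 CPM), and the difference between the 2 groups was 0.10 on the log2 scale (adjusted p = 0.727). In all other embryonic groups Esrrb was below 1 CPM in every library.

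Klf4 was detected in all 20 embryonic libraries, between 1.80 and 13.4 CPM, and was lowest in the early limb buds and in HLB at E10.5. Ca (11.9 ± 1.32 CPM) and BA (9.58 ± 2.55 CPM) did not differ beyond their spread (adjusted p = 0.112). FLB was at 2.22 ± 0.497 CPM at E10.0 and at 5.15 ± 1.20 CPM at E10.5 (adjusted p = 9.81e-06), and at E10.5 FLB was above HLB (2.23 ± 0.590 CPM, n = 2, adjusted p = 4.21e-04). The FLB libraries held 21010387 to 22142351 reads at E10.0 and 5543750 to 5908851 at E10.5, so stage and depth cannot be told apart. Even the highest embryonic library was below the lowest ES-derived library, at 35.0 CPM.

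For the other 7 genes the order of the groups began with ES–HLB and ES–FLB, in that order and each past the threshold against the next. Below them, neighbouring embryonic groups did not differ beyond their spread, except that Nanog was higher in Ca (0.633 ± 0.0793 CPM) than in TB (0.240 ± 0.130 CPM, adjusted p = 0.0188). Some groups further apart in the order did differ. Zfp42 was higher in FLB at E10.5 than at E10.0 (1.02 against 0.172 CPM, adjusted p = 1.23e-04, limma). Utf1 was higher in HLB at E10.0 than in Ca (0.540 against 0.0455 CPM, adjusted p = 8.20e-04). Both comparisons set the deeper E10.0 libraries against libraries of lower depth. Most of these values rest on a few reads, and smaller differences were not detectable at this depth.

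Set against limb buds of the same type, all 10 genes were higher in the ES-derived cells in each of 4 comparisons that share libraries. The count was largely set in advance for the genes that passed the filter only with ES-derived libraries, all but Sox2, Esrrb and Klf4. The share of all genes called higher was 38.3% for ES–FLB against FLB at E10.0 and 34.2% against FLB at E10.5, and 37.5% and 34.5% for ES–HLB against HLB at the same stages. The share called lower was 38.7%, 34.5%, 37.7% and 34% in the same order. Pou5f1 stood 3.11 (SE 0.26) above FLB at E10.0 and 4.69 (SE 0.26) above HLB at E10.0 on the log2 scale. Utf1 had the smallest difference, 0.68 (SE 0.24, adjusted p = 0.0115, limma) for ES–FLB against FLB at E10.0. That call was lost without replicate 1 of FLB at E10.0 (0.50, adjusted p = 0.0925) and without ES–FLB replicate 2 (0.59, adjusted p = 0.0527).

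Against the other tissues, the mean of both ES-derived groups was higher for 9 genes against BA, where 34.2% of all genes were higher and 35.3% lower. The filter limits this count and those for Ca and TB in the same way as the counts against limb buds. Sox2 did not pass the threshold there (-0.08, SE 0.17, adjusted p = 0.680). Against Ca 9 genes were higher and Esrrb was lower (-0.90, SE 0.23, adjusted p = 7.20e-04), with 41.7% of all genes higher and 39.3% lower. Against TB 9 genes were higher and Sox2 was lower (-2.08, SE 0.17, adjusted p = 1.13e-12), with 37.4% of all genes higher and 38.7% lower.

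**Figure D3:**
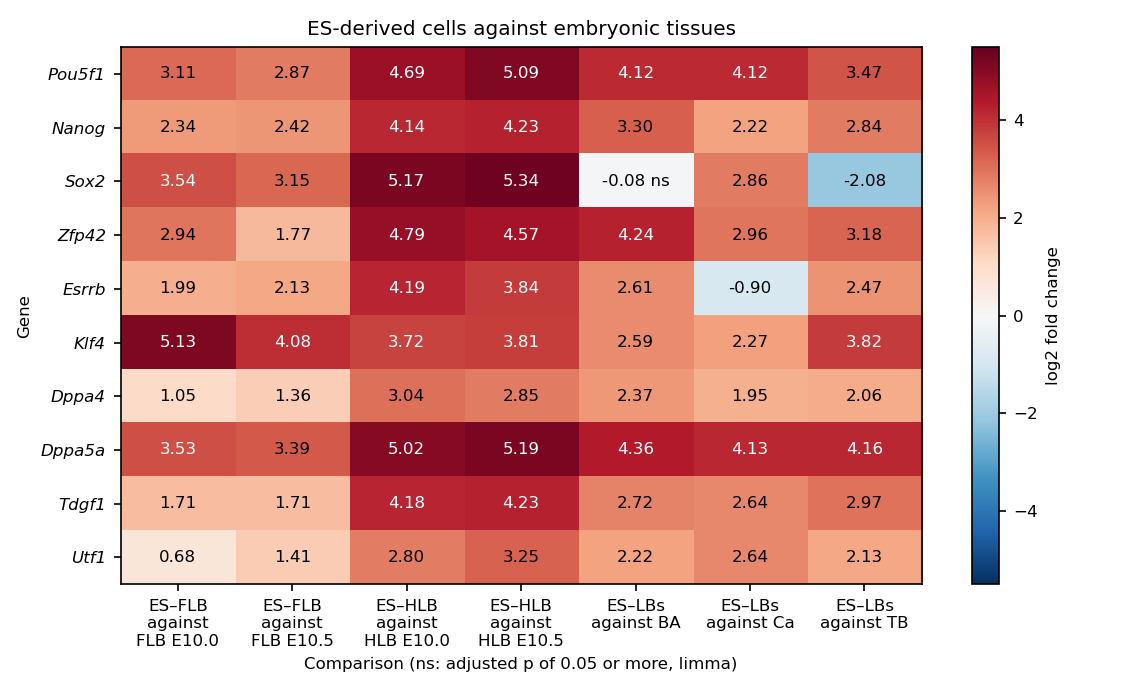
Log2 fold change of each gene (rows) in 7 comparisons of ES-derived with embryonic groups (columns), from limma over 26 libraries, with ns for values that did not pass the threshold. Red fields (higher in ES-derived cells) fill the map apart from Sox2 against BA (-0.08) and TB (-2.08) and Esrrb against Ca (-0.90).

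To ask whether embryonic hindlimb and forelimb buds differ in the same way as the cultured tissues, the difference between ES–HLB and ES–FLB was set against that between HLB and FLB at E10.0, the stage given by the labels for both. The difference in vitro was the more positive one for 9 genes and the more negative one for Klf4. These 9 genes averaged at most 0.540 CPM in either limb bud at E10.0 (Utf1 in HLB), close to the 0.5 added before the logarithm. Differences between such values are compressed, so for these genes the test largely repeats ES–HLB against ES–FLB. It cannot decide whether the limb buds differ in the same way. In that test 11.2% of the 14432 genes were higher and 8.65% lower. None of the 10 genes passed the threshold between HLB and FLB at E10.0, where the smallest adjusted p of the 10 was 0.382 (Sox2, limma). At E10.5, with 2 HLB libraries, 3 of the 10 passed it and were higher in FLB, Klf4 by 1.05 on the log2 scale (adjusted p = 4.21e-04), Sox2 by 0.84 (adjusted p = 0.00597) and Zfp42 by 0.84 (adjusted p = 0.0279). For Klf4 this was the direction seen in culture, and for Sox2 and Zfp42 the opposite one. Sox2 and Zfp42 were low, at 0.561 and 1.02 CPM in FLB and 0.0883 and 0.356 CPM in HLB. No library of these groups held more than 5 reads of Sox2 or 8 of Zfp42, so their direction is uncertain. The share of all genes called between HLB and FLB was not counted for either stage.

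The other genes of the network were counted from a list of 27. Of 24 tested in ES–HLB against ES–FLB, 18 were higher and 1 was lower, with a median log2 fold change of 1.20. The counts of this and the following lists stand beside 12.3% higher and 12.4% lower over all genes, and for several of the short lists the share is not far from these. A gene not at 1 CPM in every ES–FLB library passes the filter only with ES–HLB libraries, which can set its direction. How many listed genes did so was not counted, so these counts and medians are limited by the filter. Lin28a, which blocks the maturation of let-7 miRNAs, went from 3.39 ± 0.747 to 17.0 ± 1.30 CPM (log2 fold change 2.19, adjusted p = 2.15e-13), and L1td1 (1.86) and Trim71 (1.63), both RNA regulators of ES cells, rose with it. Lin28a and Trim71 are not particular to pluripotent cells, and their means were far higher in the early limb buds, at 440 and 80.0 CPM in FLB and 383 and 57.3 CPM in HLB at E10.0. Tbx3, a naive factor that limb and heart mesenchyme also express, was the 1 gene that fell, from 154 ± 6.51 to 61.3 ± 6.18 CPM (-1.32, adjusted p = 2.85e-17), by the same log2 step as Klf4. Of the chromatin genes in the list that all groups express, Tet1 (0.11), Jarid2 (-0.12) and Phc1 (-0.10) did not pass the threshold and Rif1 (0.32, adjusted p = 2.80e-06) was higher.

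Genes of the primed epiblast, the later pluripotent state, were higher for 6 of 8 tested and lower for none (median 0.77). Otx2, a homeobox gene that directs the exit from the naive state, went from 0.986 ± 0.342 to 13.9 ± 0.856 CPM (3.30, SE 0.20, adjusted p = 2.13e-15), more than any of the 10 genes. Its ES–FLB mean was under 1 CPM, so Otx2 passed the filter only with the ES–HLB libraries. The direction of Otx2 was thus largely set by the filter, which also limits the count of this list. Dnmt3b (0.73), Fgf5 (1.56), Cldn6 (0.80) and Sox3 (1.43) were also higher. The lists share genes, so their counts are not independent. Cldn6 is also among the endoderm markers and Sox3 among the neural ones, and Gdf3 and Dppa3 are also among the network partners. Of the pathway in which Tdgf1 acts, 5 of 14 genes tested were higher (median 0.27). Of these, 4 were the ligand Nodal (0.787 ± 0.181 to 2.94 ± 0.353 CPM, adjusted p = 4.44e-05), its antagonist Lefty2 (1.29), the transcription factor Foxh1 (1.31) and the ligand Gdf3 (1.25). Nodal, under 1 CPM on average in ES–FLB, likewise passed the filter only with the ES–HLB libraries. That limits its direction and the count of the pathway. The fifth was the receptor Acvr2b (15.1 ± 1.35 to 18.9 ± 1.46 CPM, 0.32, adjusted p = 0.0297), whereas Acvr1b (0.06), Smad2 (-0.04) and Smad3 (-0.02) did not pass the threshold.

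Germ cell genes were higher for 4 of 10 tested and lower for none (median 0.49). These were Alpl (0.90), Kit (0.47), Dppa3 (1.23) and Prdm1 (0.57), whereas Ddx4 (0.30) and Nanos3 (0.36) did not pass the threshold. Of 14 genes of the primitive streak and tail bud only Eomes and Cyp26a1 were expressed enough to be tested, and both were higher, Cyp26a1 from 0.668 ± 0.370 to 5.74 ± 0.881 CPM. A gene as low in ES–FLB as Cyp26a1 passes the filter of 1 CPM only with the ES–HLB libraries. Its direction is then largely set by the filter, so this count is not read as a result. Msgn1, of presomitic mesoderm, was at 0 in all 6 libraries. Immediate early genes, which respond to handling and growth factors, were lower for 6 of 16 and higher for 1, Klf2, which is also a naive factor (4.82 ± 0.819 to 12.1 ± 2.41 CPM). Jun (-0.58), Zfp36 (-0.37), Egr2 (-0.47) and Myc (-0.28) were among those that fell.

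**Figure D4:**
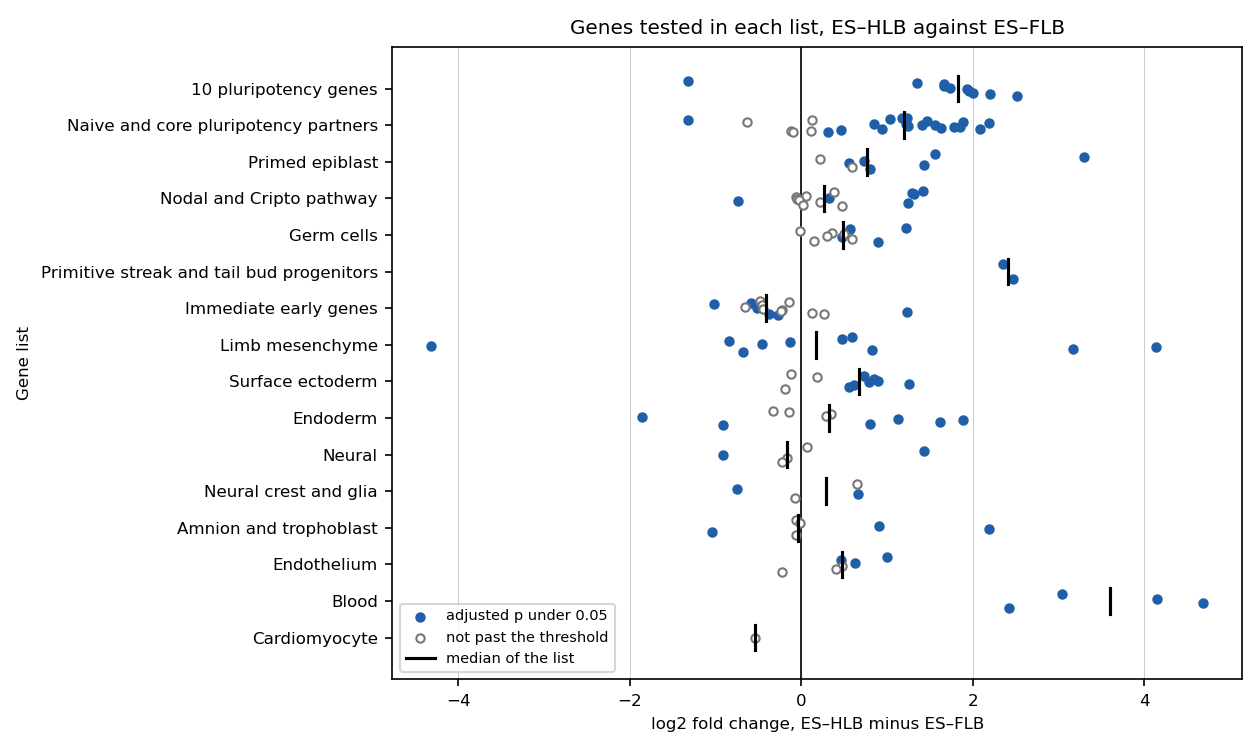
Log2 fold change, ES–HLB minus ES–FLB (x axis), of the genes tested in each list (rows), with filled points for genes past an adjusted p of 0.05, open points for the others and a bar at the list's median. The 10 genes (median 1.83) and their network partners (1.20) lie mostly to the right of 0, as do the blood (3.60) and surface ectoderm (0.67) markers. Genes low in ES–FLB were tested only where the ES–HLB libraries carried them past the filter.

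Markers of other cell types moved between the same 2 groups. Of the blood markers all 4 tested were higher in ES–HLB (median log2 fold change 3.60), with a summed level of 5.22 to 7.94 CPM in the ES–FLB libraries and 84.6 to 159 CPM in the ES–HLB libraries. Markers this low in ES–FLB pass the filter mainly with the ES–HLB libraries, which limits the count. The sums cover all listed genes and do not depend on the filter. The embryonic globins Hbb-bh1 (1.37 ± 0.456 to 48.0 ± 12.9 CPM), Hba-x and Hbb-y and the heme gene Alas2 made up these 4, while Ptprc of white blood cells was under 0.5 CPM in both groups. Surface ectoderm markers were higher for 7 of 10, their sum being 129 to 187 CPM for ES–FLB and 243 to 257 CPM for ES–HLB. Krt5 went from 35.6 ± 5.96 to 64.0 ± 2.22 CPM and Krt14 from 7.41 ± 1.70 to 18.1 ± 1.30 CPM, and Epcam (-0.12), a surface protein of epithelia and ES cells alike, did not pass the threshold.

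Endoderm markers were mixed, with 4 higher and 2 lower of 10 tested and sums of 80.7 to 107 CPM for ES–FLB and 88.3 to 109 CPM for ES–HLB. Apoa1 (1.89), Apoa4 (1.61) and Ttr (1.13) were higher and Afp was lower (47.2 ± 4.57 to 13.0 ± 3.25 CPM), and Foxa2 (-0.14) and Sox17 (0.35) did not pass the threshold. Endothelial markers were higher for 3 of 6, with sums of 25.4 to 29.6 against 38.2 to 43.2 CPM. Neural markers were higher for 1 and lower for 1 of 5, neural crest markers likewise of 4, and those of amnion and trophoblast were higher for 2 and lower for 1 of 6. The single cardiomyocyte marker tested, Tnnt2, did not pass the threshold (-0.54), and Pax6, Neurog1, Neurog2 and Olig2 were under 0.5 CPM in both groups. Limb mesenchyme markers split evenly, 5 higher and 5 lower, with sums of 1998 to 2082 CPM for ES–FLB and 2081 to 2137 CPM for ES–HLB. The part of these cell types in the levels of the 10 genes was not tested.

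Profiles over the 9 group means showed which genes ran most closely with each of the 10, among 14594 genes. With 9 points from shared libraries, 1 or 2 of them high, Pearson's r mostly reads where the peak lies, and it is given here as a description. Pou5f1 ran closest to Dppa5a within the list (r = 0.993) and outside it to Trh (0.995), Dppa2 (0.995) and Mageb16 (0.994). Nanog was most like Gad2 (0.998), Pnma5 (0.988) and S100a4 (0.987), and Zfp42 most like Prkcc (0.972), Neil1 (0.971) and Trh (0.969). Esrrb ran with Tfcp2l1 (0.986), another naive factor, which was at 9.69 CPM in ES–HLB and 9.45 CPM in Ca, and with Spp2 (0.985) and Fuca2 (0.978).

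Dppa4 was most like Dmkn (0.994), Morc1 (0.991) and Slc28a2 (0.990), and Dppa5a most like S100a14 (0.999), Ube1y1 (0.999) and Pga5 (0.998). The nearest profiles to Tdgf1 were those of D7Ertd143e (0.996), Gm10324 (0.995) and Otof (0.995), and to Utf1 those of Got1l1 (0.978), Tdh (0.975) and Apoa4 (0.972). The neighbours of Sox2 and Klf4 peaked in other groups. Sox2 was most like 9330159F19Rik (0.965), Scnn1b (0.947) and Fabp7 (0.941), all highest in TB, and its r with Pou5f1 was 0.510. Klf4 was most like Dpysl2 (0.994), Ttc17 (0.992) and Pdxdc1 (0.987), all highest in ES–FLB, and its r with Pou5f1 was 0.779.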

How the data were processed

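Stranded mRNA libraries of mouse tissues and sorted ES-derived cells were sequenced by the authors, mapped with HISAT2 2.0.4 to mm10, counted per gene with Cuffdiff and tested with edgeR 3.16.2. The values the authors deposited are CPM, which sum to 1000000 per library. Between 95.7% and 99.5% of the low values of a library were whole multiples of 1 read (tolerance 0.1 read), and all 196 values above 0 of the 10 genes were. Here, the 26 libraries were put on a common scale by a trimmed mean of log ratios without weights, leaving out the outer 30% of ratios and 5% of intensities on both sides. Genes that reached 1 CPM in 3 or more of the fitted libraries entered limma 3.58.1 in R 4.3.3 (trend, robust) as log2(CPM + 0.5), with Benjamini-Hochberg adjustment over all genes tested and a threshold of 0.05. Fold changes on this scale understate those of low genes. ES–HLB against ES–FLB used 6 libraries, all other contrasts 26. In data simulated for ES–HLB against ES–FLB, 99 of 100 changes of 1 on the log2 scale and 100 of 100 changes of 2 were recovered, with 12 false calls over 13223 genes. The changed genes had a mean of 5 CPM or more, and all genes had the same small spread. These rates therefore do not cover lower or more variable genes, such as Dppa4 (0.997 ± 0.566 CPM in ES–FLB). The members and lists were chosen with earlier results of these data known. Named in the text are the 10 genes, in each list at most the 5 genes with the smallest p past the threshold and at 1 CPM or more, markers at 0, and the 3 genes with the most similar profile; Hand2, Sox2ot, Acvr2b, Rif1 and the genes named as not past the threshold or near 0 were added after their values were seen. Columns were matched to samples by title. Positions and promoters are RefSeq on GRCm38.p6, the assembly of mm10, and exons are GENCODE vM21. Scripts ran on Python 3.11.15. Some genes that this rule names are not reported here.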

Additional observations from a re-analysis of the deposited data

Results flagged for a closer look

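For each of the 10 genes the difference between hindlimb and forelimb in culture departed from that between the limb buds labelled E10.0, the only stage for which this was tested. The values below are the log2 difference of ES–HLB minus ES–FLB less that of HLB minus FLB at E10.0, tested as an interaction with limma over 26 libraries. Among the core factors it was 1.58 for Pou5f1 (SE 0.36, adjusted p = 0.00166), 1.80 for Nanog (SE 0.34) and 1.63 for Sox2 (SE 0.28). Among the naive factors it was 1.85 for Zfp42, 2.20 for Esrrb and -1.42 for Klf4 (SE 0.26, adjusted p = 1.35e-04), the only negative value of the 10. For the remaining genes it was 2.00 for Dppa4, 1.48 for Dppa5a, 2.12 for Utf1 and 2.47 for Tdgf1 (SE 0.34, adjusted p = 2.50e-06). Pou5f1 had the largest adjusted p of the 10. The ES-derived libraries in this test are those of the comparison of ES–HLB with ES–FLB, so the 2 results are not independent. Apart from Klf4, the genes averaged at most 0.540 CPM in these limb buds (Utf1 in HLB), close to the 0.5 added before the logarithm. Their difference between limb buds is compressed on this scale, so the values largely repeat the difference in culture.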

How the results depend on the processing

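In ES–HLB against ES–FLB, all 10 genes kept their direction and passed the threshold under each of 14 alternatives: CPM as deposited, median-of-ratios scaling, no filter, pseudocounts of 0.25 and 1, limma without trend and robust estimation, the replicate block, all 26 libraries in one fit, and without each of the 6 libraries in turn. The log2 fold change of Pou5f1 ran from 1.67 to 2.15 over them, and the largest adjusted p of any of the 10 was 0.0151, for Dppa4. Over all genes 3253 passed, against 2277 without trend and robust estimation, 2839 with 26 libraries, and 2616 to 2766 without 1 library. In the comparisons with embryonic groups, the calls lost were those of Utf1 in ES–FLB against FLB at E10.0 given in the report. With the replicate number as a block, 3844 genes and all 10 of the list passed. Same-numbered ES–FLB and ES–HLB libraries deviated together only weakly (r of 0.042, 0.068 and 0.063), so the numbers are not taken as pairs, although each library correlated best with its own number, a hint from the data and not from the design. Count tests with edgeR and DESeq2, which had been planned, were not run. The deposited values are CPM, and they were not whole multiples of 1 read for all genes. Dppa4, Tdgf1 and Utf1 in ES–FLB rest on 3 to 12 reads per library.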

Other observations

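Nanog and Tdgf1 had the same value in each of the 3 ES–HLB libraries, equal to 55, 61 and 97 reads, though they lie on chromosomes 6 and 9 and differed in ES–FLB (18, 15 and 28 against 12, 7 and 9 reads). Among the 10727 genes at 5 CPM or more in all 3 ES–HLB libraries, 24 pairs were tied in this way, with exactly equal deposited CPM in each library, out of 57528901 pairs.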
